A study of Bos taurus with 20 samples.

Results

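The comparison of the endometrium, the lining of the uterus, at estrus with the endometrium 10 days later rests on 8 of the 20 libraries of the series. Members were taken by their labels: the 4 libraries of day 0 (estrus, the time of sexual receptivity) and the 4 of day 10 (the middle of the luteal phase), 1 library per Holstein heifer. All animals were virgin, sexually mature and not lactating, at least 7 months old and at least 340 kg. Both groups had received the same synchronization: a GnRH analog (Fertagyl, 100 µg) with a vaginal progesterone device (Eazi-Breed, 1.38 g), then cloprostenol, a prostaglandin F2α analog (Estrumate, 500 µg), at 96 hours and again at 120 hours, when the device came out. Day 0 is therefore a synchronized estrus and not a spontaneous one. Animals were allotted at random to their biopsy day, so the comparison is between animals and not within them. The days 5, 14 and 18, with 4 libraries each, entered the fit to share 1 estimate of the spread between animals.

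Estrus is the estrogen-dominated end of the follicular phase. After ovulation a corpus luteum forms and secretes progesterone, and around the middle of the luteal phase this hormone dominates. The endometrium answers both hormones through nuclear receptors in its epithelium, glands and stroma, and its glands secrete the uterine fluid that would feed an early embryo. By its title and design text, the series is about this secretory output and its recurrence through the cycle.

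Counts were given for 27607 gene IDs, of which 16947 passed the low-count filter. The ID lists carry no gene names, and 0 IDs matched the cattle name table used here. Pathways, cell types and the labelled tissue could therefore not be checked against named marker genes. Genes are described below by direction, size, abundance and behaviour in each animal, and 4 IDs are printed. In biopsies, fewer cells of a type and less RNA per cell cannot be told apart.

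The day 10 animals differed widely from one another, which sets how each result below can be read. Totals ranged from 22730313 to 26644679 counts on day 0 and from 21424619 to 23200131 on day 10. Across genes, log2 CPM (counts scaled to library size) correlated at 0.967 to 0.975 between any 2 day 0 libraries. Between day 10 libraries the correlation was 0.967 for replicates 2 and 4, 0.916 for replicates 1 and 3, and 0.863 to 0.885 for every other pair. Genes are not independent replicates, so these values only describe the libraries. The library closest to day 10 replicate 2 was day 14 replicate 2 (0.971), and the one closest to day 10 replicate 3 was day 18 replicate 3 (0.975). The median SD of a gene between the 4 animals, in log2 CPM, was 0.280 on day 0 and 0.460 on day 10, and it was larger on day 10 for 74.3% of tested genes. The values moved by at least 4-fold between the lowest and highest animal for 4100 genes on day 10 and for 996 on day 0. The labels give no batch, date or animal condition for these libraries, and the part of any such factor in this spread was not tested.

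By day 10, 1460 genes were higher and 1217 lower than at estrus, which is 8.62% and 7.18% of the genes tested. These are genes with an adjusted p under 0.05 in the quasi-likelihood test of edgeR, with Benjamini-Hochberg adjustment and 4 animals on either day. Among these called genes, rises had a median fitted log2 fold change of 1.61 and falls one of −1.29, against 0.045 over all tested genes. A change of at least 4-fold was fitted for 545 of the rises and 317 of the falls, and one of at least 16-fold for 180 and 50. Between day 10 animals, 517 of the rises (35.4%) spanned at least 4-fold, against 258 of the falls (21.2%). Among all tested genes this share was 24.2%.

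The balance of directions depended on the scaling. Rises made up 54.5% of the called genes with the trimmed-mean (TMM) factors used throughout, and 68.3% with library totals alone, which shifted the median of all tested genes to 0.161 (log2). With that scaling 1878 genes rose and 870 fell. The day 0 libraries had TMM factors of 0.894 to 0.934, and the day 10 libraries 0.943 to 1.05. The counts also moved when 1 library was left out, and the part of the smaller group in this was not tested. The number of rises dropped to 695, 584, 839 or 768 without day 0 replicate 1, 2, 3 or 4 and to 771 without day 10 replicate 1. The number of falls dropped to 742, 668, 879 or 792 without day 0 replicate 1, 2, 3 or 4 and to 653 without day 10 replicate 1. Without day 10 replicate 2, 3 or 4 there were 1592, 1274 or 1403 rises and 1233, 915 or 1110 falls. Without day 10 replicates 1 and 3 together, 673 genes rose and 390 fell.

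For most of these genes all 4 day 10 libraries lay beyond the day 0 range, by however little. All 4 day 10 libraries lay above all 4 day 0 libraries for 1068 of the 1460 rises (73.2%), and the reverse held for 1119 of the 1217 falls (91.9%). A call in the test already favours genes whose days lie apart, so these shares follow in part from the call. Whatever their p, 10.7% of tested genes had no overlap upward and 11.9% had none downward, 22.6% in all. Genes that passed the test and had no overlap made up 6.3% of tested genes as rises and 6.6% as falls, and they are called held rises and held falls from here on. With library totals as the scaling, the split was 1445 held rises and 783 held falls, or 64.9% rises against 48.8% with TMM factors. Without day 10 replicate 1 there were 666 held rises and 643 held falls. Without day 0 replicate 1, 2, 3 or 4 there were 638, 537, 777 or 701 held rises and 728, 658, 869 or 765 held falls. Without day 10 replicate 2, 3 or 4 there were 1238, 1156 or 1048 held rises and 1176, 891 or 1063 held falls. Without day 10 replicates 1 and 3 together there were 669 and 390, of which 353 and 301 were among the genes above.

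**Figure D1:**
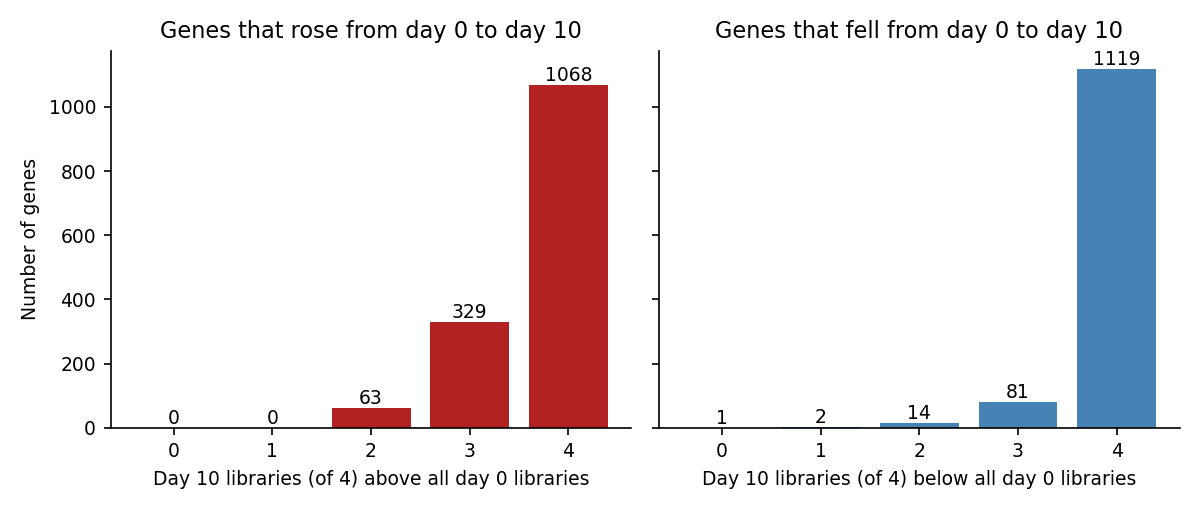
Number of genes called from day 0 to day 10 (vertical axis), by how many of the 4 day 10 libraries lay above (left) or below (right) every day 0 library (horizontal axis). For 1068 rises and 1119 falls all 4 day 10 libraries lay beyond the day 0 range; for 329 rises and 81 falls 3 did.

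The 392 rises that did not hold were mostly carried by some of the animals. In 329 of them 3 day 10 libraries exceeded every day 0 library, and in 63 only 2 did. The library that failed alone was day 10 replicate 3 for 152 genes, replicate 2 for 96, replicate 4 for 52 and replicate 1 for 29. These rises had a median log2 fold change of 2.09, above the 1.5 of the held rises. Their median SD between day 10 animals was 1.31 in log2 CPM, against 0.489 for the held rises, and 270 of the 392 spanned at least 4-fold on day 10. Overlap goes with a wide spread, and passing the test despite it takes a large fold change. Both contrasts with the held rises thus follow in part from the choice. Of the 545 rises fitted at 4-fold or more, 340 were held rises. In 34 rises a single animal held at least 75% of the summed CPM of day 10: replicate 1 in 18, replicate 3 in 14, replicate 2 in 2 and replicate 4 in 0. Only 13 of these 34 were held rises. No fall had such a concentration in 1 day 0 animal.

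The 98 falls that did not hold were fewer and showed no such excess of spread on day 10. Their median SD was 0.492 in log2 CPM on day 0 and 0.486 on day 10. The day 0 value was above the 0.275 of the held falls. In 81 of them 3 day 10 libraries were below every day 0 library, in 14 genes 2 were, in 2 genes 1 was and in 1 gene 0 were.

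The size of the change differed among the day 10 animals even where all 4 agreed in direction. The mean of the 1068 held rises, relative to the day 0 mean, was 2.04 in replicate 1, 1.42 in replicate 2, 1.70 in replicate 3 and 1.55 in replicate 4 (log2). The mean of the 1119 held falls was −2.09, −1.34, −1.72 and −1.40 in the same order. Replicates 1 and 3, which stood apart from replicates 2 and 4, thus had the larger mean changes in both directions. Replicate 1 had the largest change of the 4 animals for 509 held rises and 620 held falls, and the smallest for 93 and 100. Replicate 2 had the smallest change for 387 and 419. The genes were chosen on these same libraries, so the means describe the choice and carry no test.

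**Figure D2:**
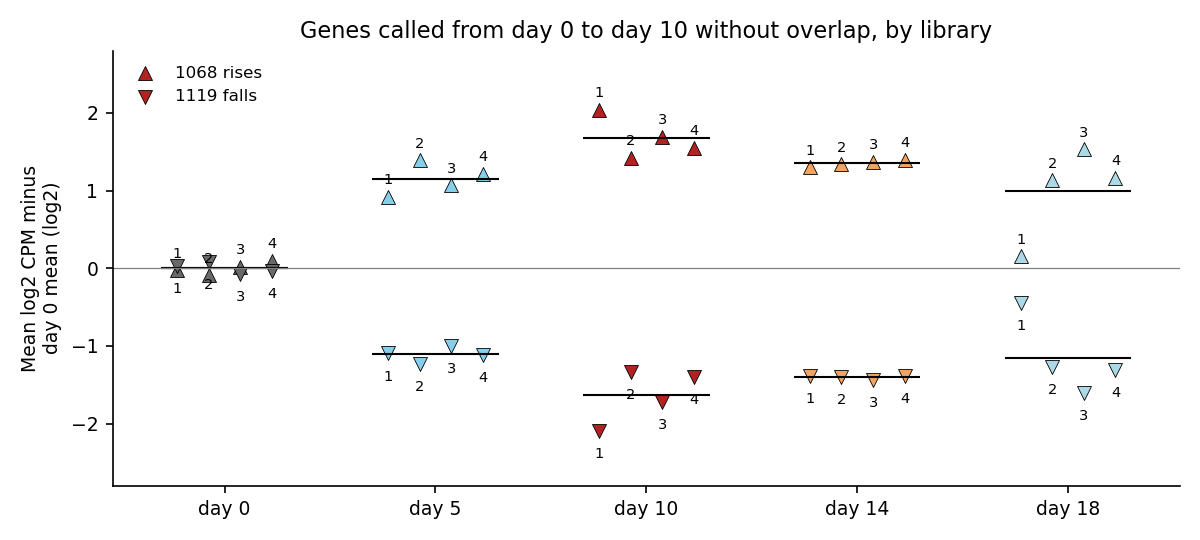
Mean log2 CPM of the 1068 held rises (triangles up) and 1119 held falls (triangles down) in each of the 20 libraries, minus the mean of day 0; numbers are replicates and lines are day means. On day 10 the rises range from 1.42 in replicate 2 to 2.04 in replicate 1 and the falls from −1.34 to −2.09, while day 14 libraries lie close together and day 18 replicate 1 lies nearest to day 0.

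Most genes called in a test without a given pair of animals moved the same way in that pair. For each of the 16 combinations of 1 day 0 and 1 day 10 library, the test was repeated without that pair, and the day 10 library of the pair was then compared with its day 0 library. Of the genes called as rising without the pair, 74.4% to 96.4% were higher in the left-out day 10 library (median of the 16 pairs 90.9%). Of the genes called as falling, 85.0% to 100% were lower (median 97.3%). Over all tested genes, 48.0% to 52.3% were higher. The lowest share for rises came from day 10 replicate 3 against day 0 replicate 3, and the lowest for falls from day 10 replicate 4 against day 0 replicate 3. With replicate 3 as the left-out day 10 library the share of rises was 74.4% to 85.9%, below the 86.6% to 96.4% of the other 3 animals. The median log2 difference in a left-out pair ranged from 0.579 to 2.03 for rises (median of the 16 pairs 0.944) and from −2.17 to −0.694 for falls (median −1.18). In size the falls were thus above the rises here, while among the fitted values of all called genes the rises had the larger median. Between 201 and 916 rises and between 275 and 897 falls were called without a pair, and both minima fell in pairs with day 10 replicate 1. The pairs share libraries among them, the scaling factors came from all libraries, and only genes that passed the filter on all libraries were kept. The 16 values are thus not independent and carry no p.

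**Figure D3:**
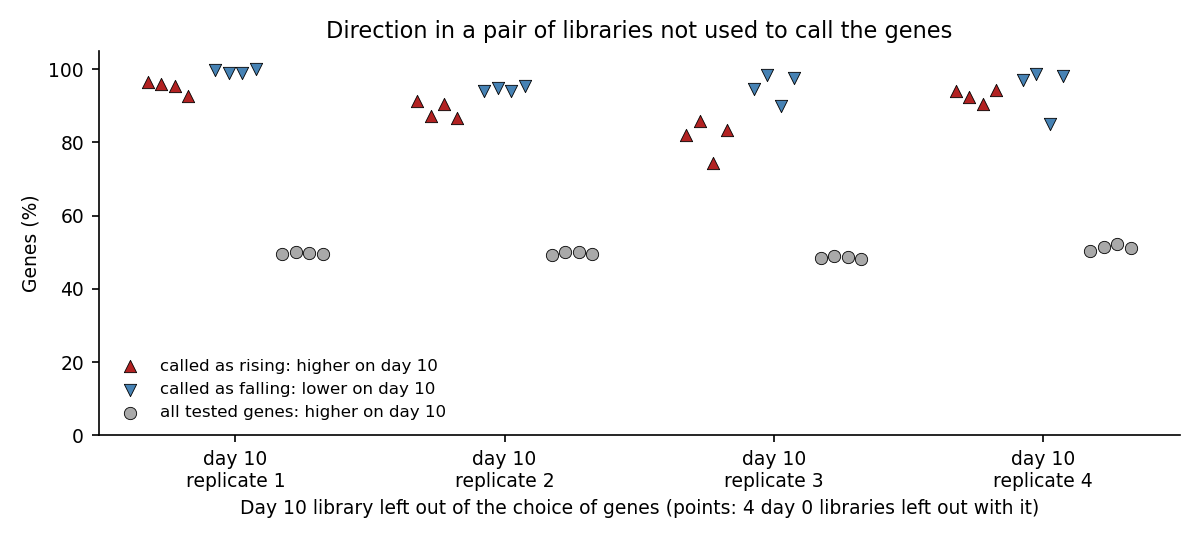
Share of genes (vertical axis, %) that moved in the called direction in a pair of libraries left out of the test, by the day 10 library left out (horizontal axis) with each of the 4 day 0 libraries (points). Rises (triangles up) lie between 74.4% and 96.4%, falls (triangles down) between 85.0% and 100%, and all tested genes (circles, share higher on day 10) between 48.0% and 52.3%.

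Many held changes were small gaps between the days, and a smaller set was clearly separated. The gap, measured from the nearest day 0 to the nearest day 10 library, had a median of 0.42 (log2) for held rises and 0.47 for held falls. It was under 1.2-fold for 321 rises and 316 falls. It reached 2-fold for 176 rises and 215 falls, 4-fold for 39 and 48, and 16-fold for 0 and 6. In 103 held rises the lowest day 10 library was under 1 CPM, and in 47 held falls the lowest day 0 library was. At that level a gap can rest on few reads. A gap of at least 2-fold with at least 1 CPM in all 4 libraries of the higher day was left for 156 rises and 205 falls. When any 1 of the 8 libraries was left out, 437 of the 1068 held rises and 507 of the 1119 held falls stayed called.

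Of the 16947 tested genes, 140 rises and 168 falls met both conditions, a gap of at least 2-fold and a call without any 1 of the 8 libraries. They were apart from day 0 in every day 10 animal, but not at an even level on day 10: 43 of the rises (30.7%) and 62 of the falls (36.9%) spanned at least 4-fold among the 4 animals, against 24.2% of all tested genes. The fitted log2 fold changes had a median of 2.95 for the rises and −2.87 for the falls. A change of at least 16-fold was fitted for 43 of the 140 and for 39 of the 168. The mean of the 140 rises, relative to day 0, was 3.51, 2.93, 2.89 and 3.09 (log2) in day 10 replicates 1 to 4. The mean of the 168 falls was −3.87, −2.76, −3.40 and −2.86. The 168 falls held 10.4% to 13.5% of all counts in the day 0 libraries. On day 10 they held 0.735% in replicate 1, 3.30% in replicate 2, 2.22% in replicate 3 and 3.37% in replicate 4. The 140 rises went from 0.143% to 0.180% of counts on day 0 to 1.02% to 1.85% on day 10. The 2 conditions were chosen after the values were seen, and these sets carry no test of their own.

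The held falls included many of the transcripts that were most abundant at estrus. The 1119 held falls together held 23.7% ± 2.01 of all counts at estrus, and 8.04% ± 2.37 by day 10 (SD, 4 animals each). By library they held 24.8%, 25.6%, 21.0% and 23.4% in day 0 replicates 1 to 4. In day 10 replicates 1 to 4 they held 5.05%, 9.94%, 7.20% and 9.95%. The 1068 held rises held 3.27% ± 0.224 at estrus, and 10.4% ± 2.25 by day 10 (SD, 4 animals each). Among day 10 libraries, replicates 1 and 3 stood at 13.3% and 11.03% and replicates 2 and 4 at 8.35% and 8.91%. The 10 most abundant falls of a library made up 8.70% to 11.2% of its counts on day 0 and 0.796% to 3.13% on day 10. Since shares sum to a whole, a loss from abundant genes raises the share of all others. The held genes were chosen for lying apart in these same libraries, so the direction of these changes in share follows from the choice. The values describe its size and carry no test.

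**Figure D4:**
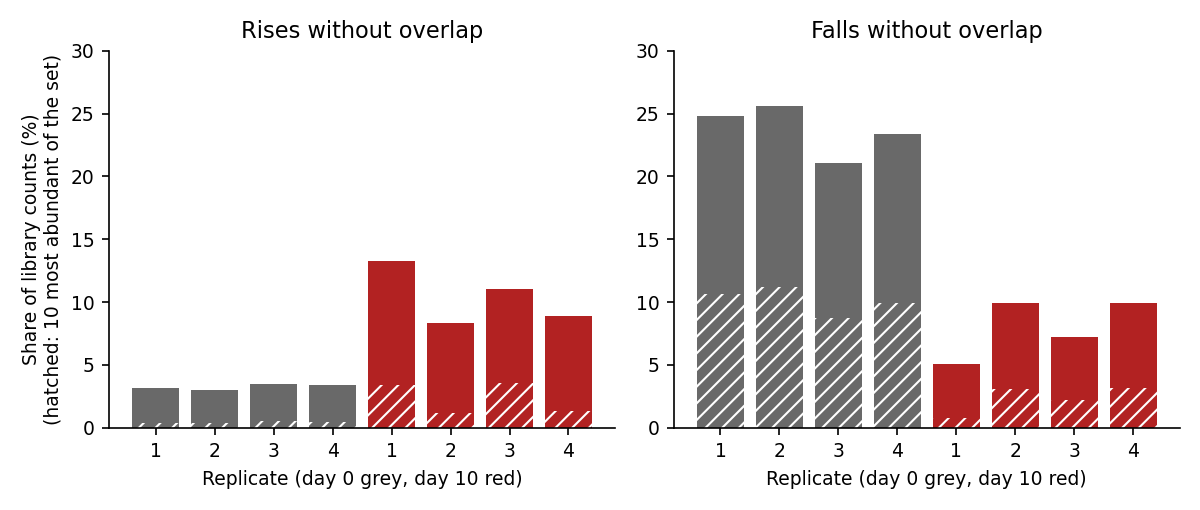
Share of each library's counts (vertical axis, %) held by the 1068 held rises (left) and the 1119 held falls (right) in the 4 day 0 (grey) and 4 day 10 (red) libraries; hatching marks the 10 most abundant genes of the set in that library. The falls go from 21.0% to 25.6% on day 0 to 5.05% to 9.95% on day 10, and the rises from 3.01% to 3.49% to between 8.35% and 13.3%. The genes were chosen on these same libraries, so the direction follows from the choice.

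Of the 50 genes with the highest mean on day 0, 21 fell and 0 rose, and all 21 were held falls. Of the 50 with the highest mean on day 10, 10 rose, 5 of them as held rises, and 5 fell. The lists share 28 genes. Each list was chosen on libraries that also enter the test, which favours falls in the day 0 list and rises in the day 10 list. By mean level over the 8 libraries, the share of tested genes that fell was 2.09% under 1 CPM, 5.38% from 1 to 10, 7.58% from 10 to 100 and 13.2% from 100 CPM up. The share that rose was 4.83%, 8.56%, 9.03% and 10.3% in the same classes. Of the genes called as rising, 65.7% were held from 1 to 10 CPM and 78.4% from 100 CPM up. For those called as falling the shares were 87.9% and 94.5%. Higher counts carry less counting error, so this order does not separate level from precision.

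In these 8 libraries the most abundant genes held less of the counts on day 10 than at estrus, short of the threshold after adjustment. The 50 most abundant genes of each library held 20.5%, 21.0%, 19.9% and 19.7% of its counts in day 0 replicates 1 to 4. On day 10 they held 16.4%, 12.1%, 18.9% and 11.5%. No day 10 value reached the day 0 range, although replicate 3 was within 1 percentage point of the lowest day 0 value. The means were 20.3% ± 0.579 and 14.7% ± 3.53 (SD, n = 4 each), a difference of −5.52 percentage points. A two-sided exact permutation test gave p = 0.0286, the smallest that 4 against 4 libraries allow, and 0.0571 after adjustment over 2 such tests, so it did not pass 0.05. From that smallest p, the adjusted value could pass only if the other test were also under 0.05. The miss after adjustment is therefore set by the number of animals and of tests. The number of genes at 1 CPM or more was 14616 ± 64.8 at estrus, and 14647.2 ± 113 by day 10 (SD, 4 animals each). The days overlapped, and the lowest value, 14536, and the highest, 14799, were both on day 10. The two-sided exact permutation p was 0.686, also 0.686 after adjustment.

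Genes that were near absent at estrus and present on day 10 seldom reached 1 CPM in all 4 animals. Of the 16947 tested genes, 25 averaged at least 1 CPM on day 10 after 3 or fewer counts in all 4 day 0 animals together. Of these 25, 22 were called as rises. At least 1 CPM in all 4 day 10 animals was reached by 1 of these genes. The reverse, 3 or fewer counts on day 10 and a mean of at least 1 CPM on day 0, was seen for 2 genes, both called as falls. For 1 of them all 4 day 0 libraries were at 1 CPM or more. Genes of both kinds were picked on the values that enter the test, which favours a call.

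ENSBTAG00000039260 had the largest rise among held genes with a mean of at least 5 CPM. It had 0, 0, 2 and 0 counts in day 0 replicates 1 to 4. In day 10 replicates 1 to 4 it had 14069, 33, 12305 and 203 counts, or 629, 1.37, 609 and 9.0 CPM. All day 10 libraries exceeded all day 0 libraries, but replicates 1 and 3 lay far above replicates 2 and 4. Over the 4 libraries of each day the scaled ratio was 13531 (95% counting interval 3745 to 111732). On the log2 scale the fitted rise was 13.5 with an SE of 3.13 (edgeR adjusted p = 0.0107), a value that varies with the prior count. It was 15.8 without day 0 replicate 3, which held both day 0 counts, and 7.95 with limma voom. Without day 10 replicates 1 and 3 it was 7.55, with edgeR adjusted p = 0.132; over its 20 alternatives the adjusted p ranged from 9.63e-10 to 0.132. Day 18 replicate 3, which correlated best with day 10 replicate 3, held 1036 CPM of this gene, and the other day 18 libraries 0.930 to 4.58 CPM. On day 14 its level was 4.42, 4.39, 28.7 and 67.0 CPM.

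ENSBTAG00000052892, the second largest rise, was also uneven among the animals, with replicate 3 low. It had 0, 0, 1 and 0 counts in day 0 replicates 1 to 4, and 497, 1455, 2 and 1350 counts in day 10 replicates 1 to 4. This is 22.2, 60.6, 0.0990 and 59.8 CPM. Day 10 replicate 3 is thus at the level of day 0, separated from it by a single count. The scaled ratio was 3360 (95% counting interval 603 to 132753) and the fitted log2 fold change 11.09 (SE 2.31, edgeR adjusted p = 0.00832). Without day 0 replicate 3 the fitted value was 12.7, and without day 10 replicates 1 and 3 it was 11.8. Over its 19 alternatives the adjusted p ranged from 9.69e-06 to 0.0417. In the fit of the 8 libraries alone the low-count filter removed it. On day 18 it had 0 counts in all 4 libraries, and on day 14 it ranged from 0 to 1.30 CPM. ENSBTAG00000039260 and ENSBTAG00000052892 both meet the no-overlap condition, yet neither was high in all 4 day 10 animals.

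The largest falls were at or near 0 in all 4 day 10 animals. ENSBTAG00000037768 was at 133, 340.2, 777 and 208 CPM in day 0 replicates 1 to 4. On day 10 it had 0, 0, 2 and 0 counts. The day 0 total was 33281 counts, a scaled ratio of day 0 to day 10 of 16363 (95% counting interval 4529 to 135121). The fitted log2 fold change was −13.7 (SE 1.78, edgeR adjusted p = 0.000755), and the adjusted p stayed between 1.47e-13 and 0.00911 over its 20 alternatives. The fitted value was −16.0 without day 10 replicate 3, which held both day 10 counts, −14.4 with a replicate block and −12.96 without day 0 replicate 3. Its level was 0.206 to 4.78 CPM on day 5 and 0.0428 to 13.1 CPM on day 18, highest in replicate 1 of each day.

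ENSBTAG00000032193 was at 126, 186, 199 and 104 CPM in day 0 replicates 1 to 4, and had 0, 2, 5 and 2 counts in day 10 replicates 1 to 4. Every day 10 library was at or under 0.248 CPM. The scaled ratio of day 0 to day 10 was 1509 (95% counting interval 795 to 3301). The fitted log2 fold change was −10.5 (SE 1.53, edgeR adjusted p = 0.000924), with adjusted p between 7.75e-15 and 0.0111 over its 20 alternatives. Without day 10 replicate 3 the fitted value was −11.2. On day 18 it was at 22.2 CPM in replicate 1 and at 0.0428 to 2.81 CPM in the others. On day 0, where they were expressed, ENSBTAG00000037768 spanned 133 to 777 CPM and ENSBTAG00000032193 104 to 199 CPM.

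**Figure D5:**
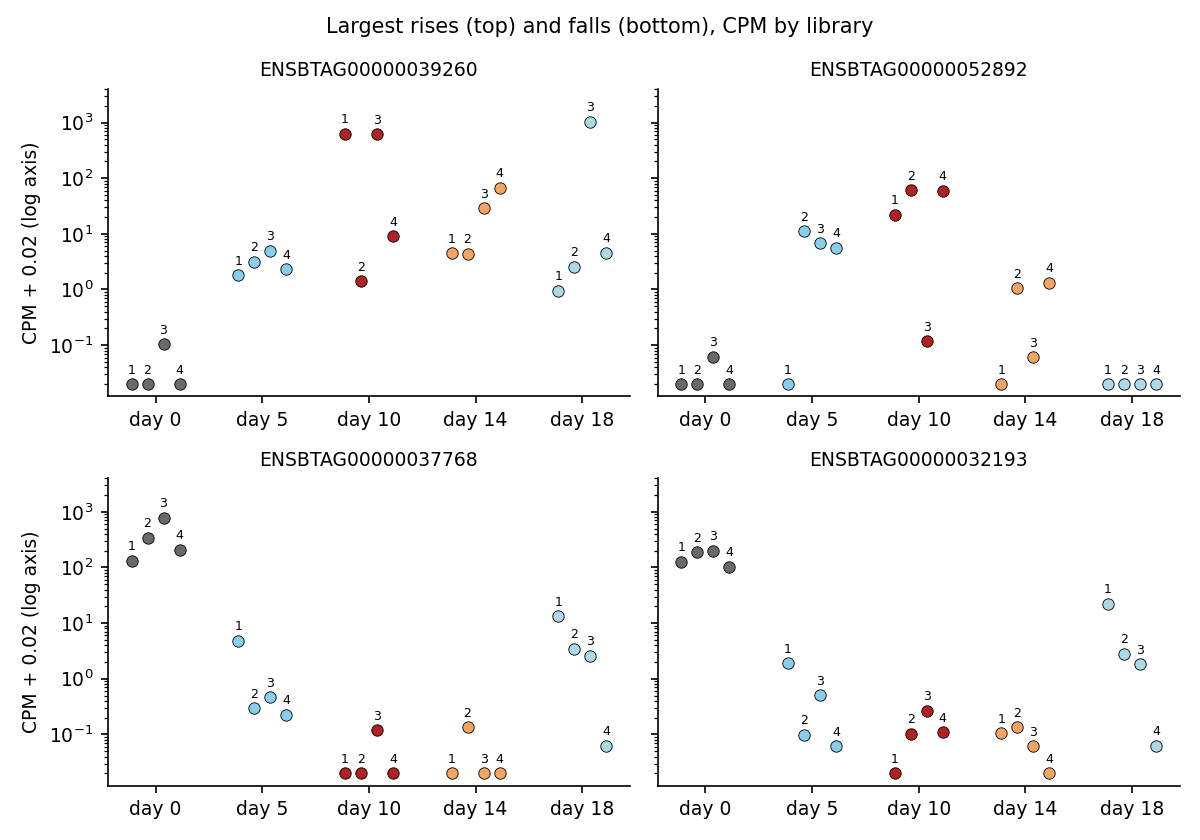
CPM plus 0.02 (logarithmic axis) of the 2 largest held rises (top) and the 2 largest held falls (bottom) in each of the 20 libraries, with replicate numbers, by day of the cycle (horizontal axis). ENSBTAG00000039260 is at 629 and 609 CPM in day 10 replicates 1 and 3 but 1.37 and 9.0 in replicates 2 and 4, whereas both falls are at or under 0.248 CPM in all 4 day 10 libraries.

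The held changes of day 10 were also compared directly between day 10 and the other days after estrus. From day 5 to day 10, 0 of the 1068 held rises and 1 of the 1119 held falls passed the edgeR test (adjusted over all genes). Over all tested genes the counts were likewise 0 that rose (0%) and 1 that fell (0.0059%), so they say nothing particular about the held genes. From day 10 to day 14 and from day 10 to day 18, 0 genes of either set and 0 of all tested genes passed in either direction. From day 5 to day 10 an unadjusted edgeR p under 0.05 was reached by 346 of the 1068 held rises and 213 of the 1119 held falls. Over all 16947 tested genes it was reached by 2246 (13.3%). From day 10 to day 14 the counts were 171, 70 and 1397 (8.24%), and from day 10 to day 18 they were 243, 250 and 1383 (8.16%). The held genes were chosen on day 10 libraries that enter each of these tests. A p that misses the threshold does not show that the days are alike. The median log2 difference of the held rises was 0.45 from day 5 to day 10 and −0.26 from day 10 to day 14. For the held falls it was −0.36 and 0.11. Of the held rises, 663 (62.1%) had the highest of their 5 day means on day 10, and the highest came on day 14 for 247, on day 18 for 20 and at day 5 for the other 138. Of the held falls, 659 (58.9%) had their lowest mean on day 10, and the lowest came at day 14 for 289, at day 18 for 52 and at day 5 for the other 119. Over all tested genes the highest mean was on day 10 for 15.9% and the lowest for 18.6%. The sets were chosen on day 10 values, which favours day 10 as the extreme.

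Set beside the same day 0 libraries, the other days gave smaller mean changes in these genes. The genes were chosen for their change on day 10, which favours the larger mean on that day. By library the order did not always hold. Day 18 replicate 3 had means of 1.53 for held rises and −1.61 for held falls, against 1.42 and −1.34 in day 10 replicate 2. The comparisons share the day 0 animals, so the values are given side by side. From day 0, 371 held rises passed by day 5, 591 by day 14 and 152 by day 18. Over all tested genes the rises at these times were 751 (4.43%), 1234 (7.28%) and 182 (1.07%). Among held falls 457, 797 and 265 passed, of 702 (4.14%), 1428 (8.43%) and 297 (1.75%) falls over all tested genes. The held genes were chosen on the same day 0 libraries, which favours shares above the background. All 4 libraries lay beyond the day 0 range for 631, 850 and 292 held rises at these times, and for 810, 968 and 484 held falls. Over all tested genes, whatever their p, 12.3%, 17.1% and 3.94% had no overlap upward and 12%, 17.2% and 5.77% downward. On day 10 these shares were 10.7% and 11.9%. Of the clearly separated genes, 135 of the 140 rises and 165 of the 168 falls were beyond the day 0 range in all 4 day 14 animals, and 45 and 113 in all 4 day 18 animals. Day 18 replicate 1 lay nearest to day 0, with a mean of 0.15 (log2) for held rises and −0.45 for held falls, against 1.13 to 1.53 and −1.61 to −1.27 in the other day 18 animals.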

How the data were processed

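Poly(A) RNA of 20 biopsies was made into stranded TruSeq libraries, per the labels' protocols. FastQC, STAR and edgeR are named in the submitters' processing notes; for the build, annotation, counting program and strand setting, not given in the sources used here, nothing can be said, so antisense partners and near-identical copies may share reads. The authors deposited raw counts per Ensembl gene ID, 1 file per library, with no normalization. The comparison, its gene sets and its tests were chosen with earlier results of these data known; gene lists by symbol could not be used without names, so the rule for named genes became at most 2 IDs per direction: the largest fitted changes among held genes with a mean of at least 5 CPM over the 8 libraries. Groups came from each sample's title. The tests were run with edgeR 4.0.16 under R 4.3.3 (filterByExpr, TMM factors, robust dispersions, quasi-likelihood F-test, 1 mean per day, all 20 libraries), tested on simulated data. The adjusted p threshold was 0.05, log2 CPM used a prior count of 2, and an SE was the log2 fold change divided by the square root of F. Exact binomial intervals (95%) cover counting error only. Exact permutation tests used scipy 1.17.1. Chi-square per degree of freedom over the 12 pairs of libraries of a day was 42.0 to 398, so no 2 libraries agreed within sampling noise. The labels do not say whether other factors separate the animals. Alternatives were other scalings, filters, tools (DESeq2 1.42.0, limma 3.58.1), a replicate block, the 8 libraries alone and each library left out; leaving out 2 libraries of day 10 or day 18 together was added after the data were seen.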

Additional observations from a re-analysis of the deposited data

Results flagged for a closer look

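In 3 of the 18 sets of 4 values examined, 1 library lay far from the other 3. The usual chance rate of about 1 set in 20 is for continuous values and does not apply to counts near 0, as here. All 3 are single libraries with a few reads of a gene at 0 in the others of its day, where the gap is the whole range (a gap-to-range ratio of 1). Day 0 replicate 3 had 2 counts of ENSBTAG00000039260 and 1 count of ENSBTAG00000052892, and day 10 replicate 3 had 2 counts of ENSBTAG00000037768.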

How the results depend on the processing

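With RLE factors, library totals, either other filter, no robust option or only the 8 libraries, the 4 counts (rises, falls and those without overlap) stayed within 1.5 times their values. The genes behind the counts changed more. With only the 8 libraries, 60.2% of the rises, 64.8% of the falls, 77.15% of the held rises and 69.6% of the held falls were kept. Library totals kept 71.3% of the falls and 69.9% of the held falls, against 99.9% of the rises and of the held rises. DESeq2 called 2232 rises, and limma voom with quality weights 2322 rises and 2545 falls. Against a 2-fold change, 79 genes rose and 81 fell, 76 and 81 without overlap. With 1 library left out, rises ranged from 584 to 1592, falls from 653 to 1233, held rises from 537 to 1238 and held falls from 643 to 1176. Without day 10 replicates 1 and 3 the counts were 673, 390, 669 and 390; without day 18 replicates 1 and 3, 2385 genes rose and 1841 fell. The cause of these moves was not tested, beyond there being fewer libraries in a fit. Same-numbered libraries of both days had deviations that correlated at −0.198 to −0.00616, and 0 of 4 correlated best with its own number. With 4 such pairs from these days alone, this cannot decide whether some factor follows the replicate number. With a replicate block 1368 genes rose and 1314 fell, 1076 and 1168 without overlap. The adjusted p of ENSBTAG00000039260 was 0.0502 against a 2-fold change. The difference in the share of counts was −5.56 percentage points for the 100 most abundant genes (exact permutation p = 0.0571). With 1 library left out it was −6.92 to −4.45, where 3 against 4 libraries cannot go below 0.0571. Without day 10 replicates 1 and 3 it was −8.43 (two-sided exact permutation p = 0.133). Both day 10 libraries left were below every day 0 value, so no smaller p was possible there. The difference in genes at 1 CPM or more, 31.3, ranged from −19.3, a turn in direction without day 10 replicate 4, to 68.3 with 1 library left out. The tests of gene lists were not run, for want of names.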
